A study of Mus musculus with 16 samples.

Results

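The genes described are the collagens, laminins, matrix proteases, protease inhibitors and lysyl oxidases of the liver, taken by symbol. They comprise every gene of the deposited counts table whose symbol begins with Col and a chain number, Lama, Lamb or Lamc, Adamts, Mmp, Timp or Lox, apart from the macrophage elastase Mmp12. This gave 78 of 15119 genes: 33 collagen chains, 11 laminin chains, 14 ADAMTS proteases, 13 matrix metalloproteinases, 2 tissue inhibitors of metalloproteinases and 5 lysyl oxidases. A filter on low counts left 74 of them among the 14434 genes tested, and Adamts3, Adamts17, Col4a6 and Mmp8, with at most 9 counts in any library, were not tested.

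Poly(A) RNA was sequenced from the livers of female mice in 4 groups of 4 libraries. All animals were aged to 9 months on chow and then either stayed on chow or received a high-fat diet (HFD, TD. 88137) during the following 12 weeks. The wild-type groups (WT chow and WT HFD) were set against mice with a hepatocyte knockout of Arglu1 (LKO chow and LKO HFD). Arglu1 encodes a coregulator of transcription and splicing. The labels do not name the Cre driver or the deleted exons, and other liver cells of LKO mice still carry the gene. Nothing in the labels ties a library to a single animal, so every error and p-value is a measure of the spread among libraries.

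The extracellular matrix of the liver is a scaffold of fibrillar collagens around portal tracts and central veins and a loose basement membrane along the sinusoids. Collagen and laminin chains assemble inside the cell into trimers of fixed composition, so that a protein needs all of its partner chains. Most fibrillar collagen of the liver is known to come from stellate cells and portal fibroblasts, while endothelial cells and hepatocytes contribute basement membrane components. ADAMTS proteases and metalloproteinases trim or degrade these proteins, tissue inhibitors restrain them, and lysyl oxidases crosslink the finished fibres.

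The bases upstream of 6 of these genes are shown because the genes carry the main contrasts described below: Col4a5, Col6a2 and Col5a3 were higher in LKO liver on both diets, their neighbours Col4a6 and Col6a1 were not tested and not called, respectively, and Col3a1 was higher on HFD in WT. Each run holds up to 250 bases before a RefSeq transcript start in GRCm38.p6, cut where a GENCODE exon of the gene begins, and is written 5′ to 3′ on the strand of its gene. Col4a5 is from chrX:141475169-141475384 (plus strand), Col4a6 from chrX:141474077-141474326 (minus), Col6a2 from chr10:76623631-76623880 (minus), Col6a1 from chr10:76726169-76726294 (minus), Col5a3 from chr9:20815068-20815317 (minus) and Col3a1 from chr1:45311288-45311537 (plus). Capitals mark matches on either strand to 4 motifs: TATAAA, known as the TATA box, CCAAT, known as the CAAT box, GGGCGG, known as the GC box, and TGACTCA, the site of AP-1. The matches shown do not overlap each other.
Col4a5: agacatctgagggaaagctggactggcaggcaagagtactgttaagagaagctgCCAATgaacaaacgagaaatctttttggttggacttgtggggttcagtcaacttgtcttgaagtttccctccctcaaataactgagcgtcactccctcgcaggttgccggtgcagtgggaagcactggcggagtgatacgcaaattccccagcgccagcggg
Col4a6: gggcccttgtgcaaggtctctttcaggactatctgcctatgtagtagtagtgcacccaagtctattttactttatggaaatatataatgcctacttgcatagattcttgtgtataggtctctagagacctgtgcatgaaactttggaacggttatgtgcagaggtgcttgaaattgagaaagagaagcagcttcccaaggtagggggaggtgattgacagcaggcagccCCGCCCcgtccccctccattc
Col6a2: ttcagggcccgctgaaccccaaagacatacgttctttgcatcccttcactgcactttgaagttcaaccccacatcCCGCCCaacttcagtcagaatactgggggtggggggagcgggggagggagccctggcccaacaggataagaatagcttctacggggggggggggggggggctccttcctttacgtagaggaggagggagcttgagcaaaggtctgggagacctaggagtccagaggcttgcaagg
Col6a1: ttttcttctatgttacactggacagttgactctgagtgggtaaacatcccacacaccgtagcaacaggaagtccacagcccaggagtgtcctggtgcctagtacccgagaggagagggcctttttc
Col5a3: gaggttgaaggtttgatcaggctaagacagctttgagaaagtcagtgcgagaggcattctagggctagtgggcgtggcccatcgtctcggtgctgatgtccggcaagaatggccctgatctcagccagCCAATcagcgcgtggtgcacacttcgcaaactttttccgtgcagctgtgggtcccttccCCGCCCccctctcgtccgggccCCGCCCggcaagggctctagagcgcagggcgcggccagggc
Col3a1: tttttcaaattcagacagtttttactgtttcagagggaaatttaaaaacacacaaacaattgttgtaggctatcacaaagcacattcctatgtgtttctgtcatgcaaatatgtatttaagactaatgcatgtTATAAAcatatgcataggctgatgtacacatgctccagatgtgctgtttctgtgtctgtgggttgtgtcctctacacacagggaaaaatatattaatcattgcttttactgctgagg
The run of Col5a3 held 1 CCAAT and 2 GGGCGG matches (read as CCGCCC on the strand shown), that of Col3a1 a TATAAA match, and that of Col6a1 none of the 4 motifs. The Col6a2 run, with 1 GGGCGG match, lies before promoter 2 of that gene. Its first RefSeq promoter, used in the shares below, held 3 GGGCGG matches and is not shown because too few of its bases lay outside exons. Over whole windows of 250 bases, GGGCGG was present in 33 of the 52 matrix genes with a RefSeq promoter (63.5%) and in 32.9% of 27018 genes. These 27018 include genes absent from the liver counts, to which the matrix genes were limited, so the 2 sets are not alike. The windows of the matrix genes held a median of 13.5 CpG dinucleotides, against 6 over all genes. CCAAT was found in 26.9% of the matrix windows and 34.5% of all windows, TATAAA in 9.6% and 13%, and TGACTCA in 3.8% and 4.4%. A match describes letters in the window and says nothing of binding.

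Several of these genes are neighbours in the genome (GENCODE M21, GRCm38, also called mm10). Col4a5 (chromosome X, 141475385 to 141689234) and Col4a6 (141165403 to 141474076) point away from each other with 1.3 kb between them. Col6a2 (chromosome 10, 76595762 to 76623630) and Col6a1 (76708792 to 76726168) lie on the same strand 85.2 kb apart, and Col18a1 (77052178 to 77166548) follows on the same chromosome. Col4a1 and Col4a2 on chromosome 8 overlap at their starts by 22 exon bases. Col5a3 lies on chromosome 9 from 20770050 to 20815067. Whether reads were counted by strand is not given in the sources used here, so reads from overlapping genes cannot be told apart. Among the genes described below, Mmp19 shares 22.3% of its exon bases with Tmem198b, and Timp3 shares 21.3% with Syn3.

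Total counts ran from 19142612 to 25120565 per library. Arglu1 stood at 39.5 to 45.1 CPM (counts scaled to library size) in the 8 WT libraries and at 12.8 to 16.7 CPM in the 8 LKO libraries. LKO chow libraries 3 and 4 lay apart from LKO chow libraries 1 and 2 on the second principal component of all genes, at 38.1 and 34.7 against -10.7 and -11.1. The summed level of 18 endothelial marker genes was 884 and 729 CPM in LKO chow libraries 1 and 2 and 380.1 and 364 CPM in libraries 3 and 4, and in WT chow it ran from 364 to 778 CPM. The part of these differences in the results below was not tested. Results on LKO chow were therefore also computed without each of these pairs of libraries. In bulk liver RNA, fewer cells of a type and less RNA per cell cannot be told apart.

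Per kilobase of exon, the highest mean level over the 16 libraries was that of Col18a1 at 137 CPM per kb, followed by Mmp19 at 27.2, Mmp15 at 11.2, Col5a3 at 9.86 and Col14a1 at 8.41. Collagen XVIII is a basement membrane heparan sulfate proteoglycan whose end fragment is endostatin, and hepatocytes are a known source of it. Col18a1 alone made up 53.5% of the summed CPM of all 78 genes. Of the 78, 26 had a mean of at least 10 CPM and 22 a mean below 1 CPM. The summed CPM of the other 77 genes ran from 605 to 738 in WT chow, 819 to 1008 in LKO chow, 730.4 to 967 in WT HFD and 898 to 987 in LKO HFD.

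The first comparison asked how the loss of Arglu1 from hepatocytes affects matrix transcripts on chow. Of the 74 genes tested, 18 rose and 1, Col18a1, fell, with Col4a5, Col6a2, Col5a3 and Lama5 at the lowest p. The 19 called genes are 25.7% of those tested, close to the 24.7% called among all 14434 genes, but the 18 that rose are to be read beside 12.9% of all genes called higher and the single fall beside 11.8% called lower. The median log2 fold change was 0.34 over the 74 genes and 0.02 over all genes, and 53 of the 74 lay above 0. A call is an adjusted p below 0.05 in edgeR's quasi-likelihood test with Benjamini-Hochberg adjustment over all genes tested. Of the 18 risers, 10 rose at least 2-fold. In 14 of the 74 genes (18.9%) the 2 groups did not overlap, against 21.4% of all genes.

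On HFD the same comparison called 14 of 74 genes (18.9%, against 17.9% of all genes), of which 10 rose and 4 fell. Among all genes 10.3% were called higher and 7.57% lower. The median log2 fold change of the 74 was -0.10, against -0.01 over all genes, and 45 lay below 0. WT and LKO libraries did not overlap in 15 of them (20.3%, against 27.7% of all genes). The chow and HFD comparisons use separate libraries but one estimate of the spread. They shared 10 calls, 52.6% of those on chow and 71.4% of those on HFD, and all 10 had the same direction. Over all genes the shared calls were 49.7% of those on chow and 68.6% of those on HFD, with the same direction in 1769 of 1772. The shared risers were Col4a5, Col6a2, Col5a3, Col20a1, Lama5, Col11a2, Col12a1, Mmp15 and Adamts15, and the shared fall was that of Col18a1.

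**Figure D1:**
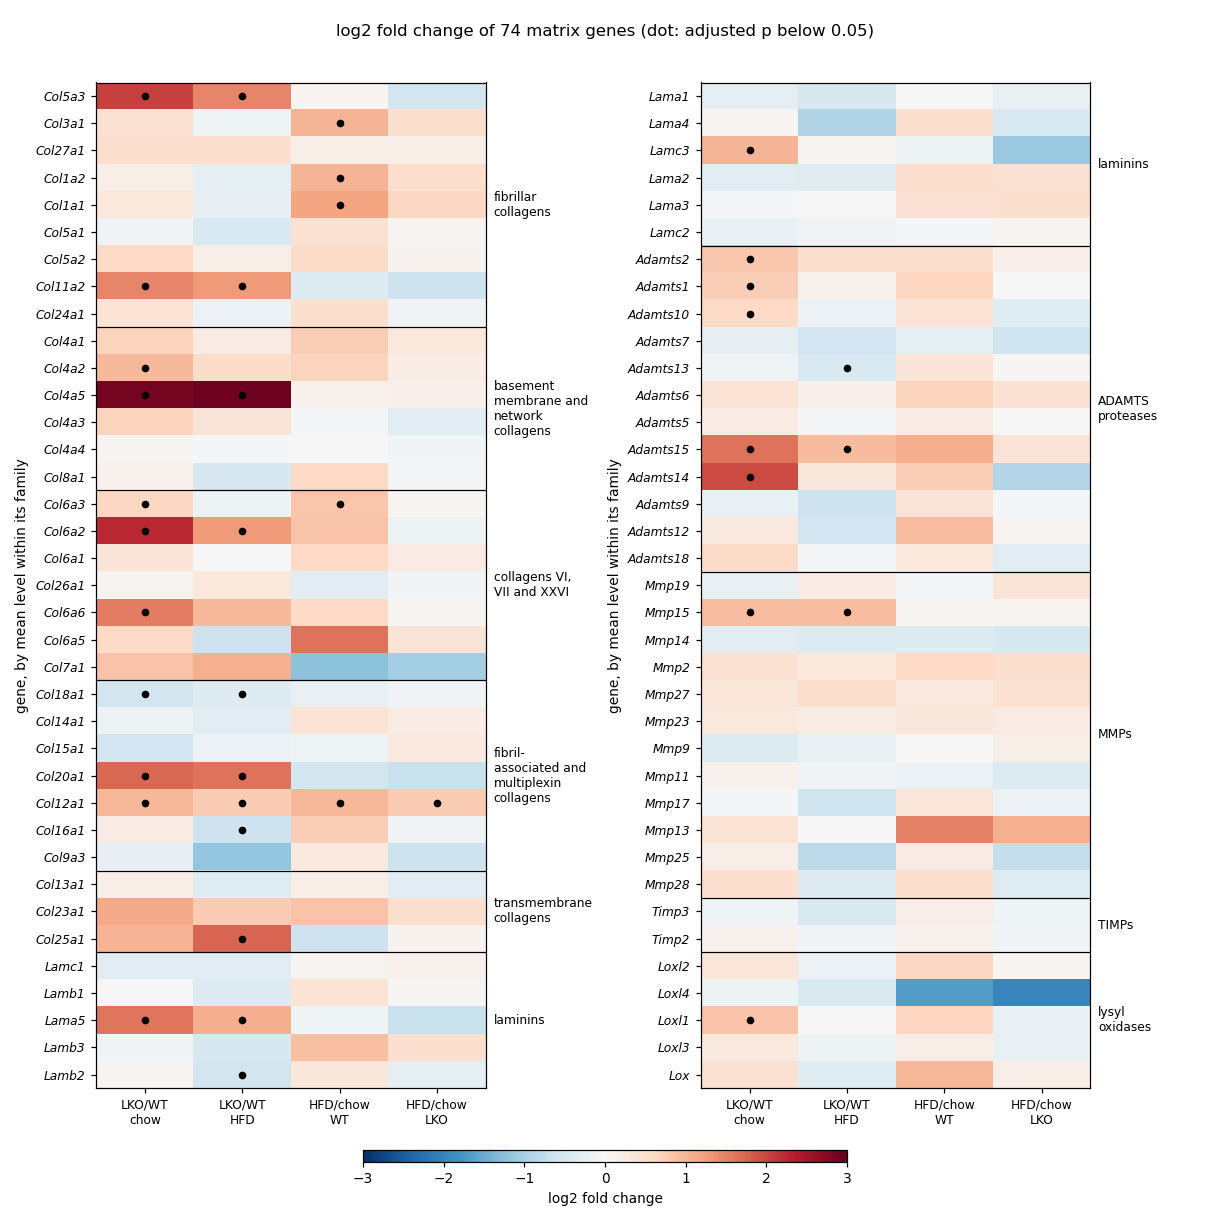
Fitted log2 fold changes of the 74 matrix genes tested (rows, by family and then by mean level) in 4 comparisons (columns), with red for higher and blue for lower and a dot where the edgeR adjusted p was below 0.05. The first column holds 18 dots on red and 1 on blue, the second 10 and 4, the third 5 on red and the fourth 1, for Col12a1.

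Among basement membrane collagens, Col4a5 showed the largest genotype difference of the 74 genes on both diets. It encodes a type IV collagen chain of specialised basement membranes, such as that of the kidney glomerulus. On chow its level was 1.43, 0.838, 1.72 and 2.66 CPM in the WT libraries and 12.6, 13.9, 13.7 and 8.09 CPM in the LKO libraries. On HFD it was 2.11, 1.72, 1.29 and 2.08 CPM in WT and 17.5, 12.4, 12.8 and 11.4 CPM in LKO. Every LKO library thus exceeded every WT library of its diet, and the fitted difference was 7.31-fold on chow (log2 fold change 2.87, SE 0.27, edgeR adjusted p = 9e-07) and 7.5-fold on HFD (log2 fold change 2.91, SE 0.27, edgeR adjusted p = 8.91e-07). Its divergent neighbour Col4a6, with at most 6.5 counts in a library, was near the limit of detection throughout. Col4a3 and Col4a4, other type IV chains, had means of 1.21 and 0.774 CPM over the 16 libraries and were not called in any comparison.

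Col4a1 and Col4a2, which encode the chains of the common type IV network, gave mean levels of 5.62 and 4.51 CPM per kb. Col4a2 rose on chow, from 13.5, 24.9, 18.3 and 12.6 CPM in WT to 43.2, 40.98, 24.1 and 29.00 CPM in LKO (log2 fold change 0.98, SE 0.25, edgeR adjusted p = 0.0102). The ranges overlapped, since WT library 2 exceeded LKO library 3. The call was lost without LKO chow libraries 1 and 2, where the log2 fold change was 0.61 and the adjusted p 0.132. On HFD Col4a2 had a log2 fold change of 0.55 (edgeR adjusted p = 0.144), and Col4a1 had 0.67 on chow and 0.25 on HFD (adjusted p = 0.12 and 0.628). LKO chow libraries 1 and 2, which hold the higher Col4a2 values, are also those with the higher endothelial marker sum, and its part in the Col4a2 result was not tested.

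Col18a1 was the one gene that fell on both diets. It stood at 1265, 1165, 1122 and 1275 CPM in WT chow and 970.0, 806, 773 and 745 CPM in LKO chow. On HFD the values were 1056, 922, 1115 and 1030.1 CPM in WT and 809.7, 811, 785 and 727 CPM in LKO. The genotypes did not overlap on either diet. Log2 fold changes were -0.55 (chow, SE 0.098, edgeR adjusted p = 0.000533) and -0.40 (HFD, SE 0.098, adjusted p = 0.00815). The WT chow mean of 1207 ± 75.2 CPM compares with 823 ± 101 CPM for LKO chow (SD, n = 4 each).

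Laminins are trimers of an alpha, a beta and a gamma chain, and 11 chains were tested. Lama5, the alpha chain of many mature epithelial and vascular basement membranes, rose on both diets. On chow it was at 4.60, 6.92, 7.26 and 4.78 CPM in WT and 16.2, 10.9, 24.5 and 20.7 CPM in LKO, and on HFD at 5.86, 4.52, 5.49 and 5.65 and 10.3, 12.1, 12.8 and 10.4 CPM. No library of one genotype reached the range of the other, with a change of 3.06-fold on chow (log2 fold change 1.61, SE 0.21, edgeR adjusted p = 2.82e-05) and 2.12-fold on HFD (log2 fold change 1.08, SE 0.21, edgeR adjusted p = 0.00143).

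No partner chain of Lama5 was called higher on both diets. Lamc1, the gamma chain shared by most laminins, had log2 fold changes of -0.35 on chow and -0.31 on HFD (edgeR adjusted p = 0.137 and 0.212). Lamb2, a beta chain of vascular and synaptic laminins, fell on HFD by 0.56 on the log2 scale (SE 0.17, edgeR adjusted p = 0.0329), from 10.1, 5.80, 6.90 and 8.76 CPM in WT to 4.86, 6.53, 5.02 and 5.03 CPM in LKO. The Lamb2 ranges overlapped, and the adjusted p reached 0.126 when single libraries were left out. Lamc3, a rarer gamma chain, rose on chow by 1.01 (SE 0.34, edgeR adjusted p = 0.0369) with overlapping groups, WT at 1.69 to 3.48 CPM and LKO at 3.24 to 8.06 CPM. Its adjusted p ran up to 0.134 over the alternatives. Lamb1, the common beta chain, stood at 10.5 ± 3.5 (WT) and 10.4 ± 2.9 CPM (LKO) on chow (SD, n = 4 each).

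**Figure D2:**
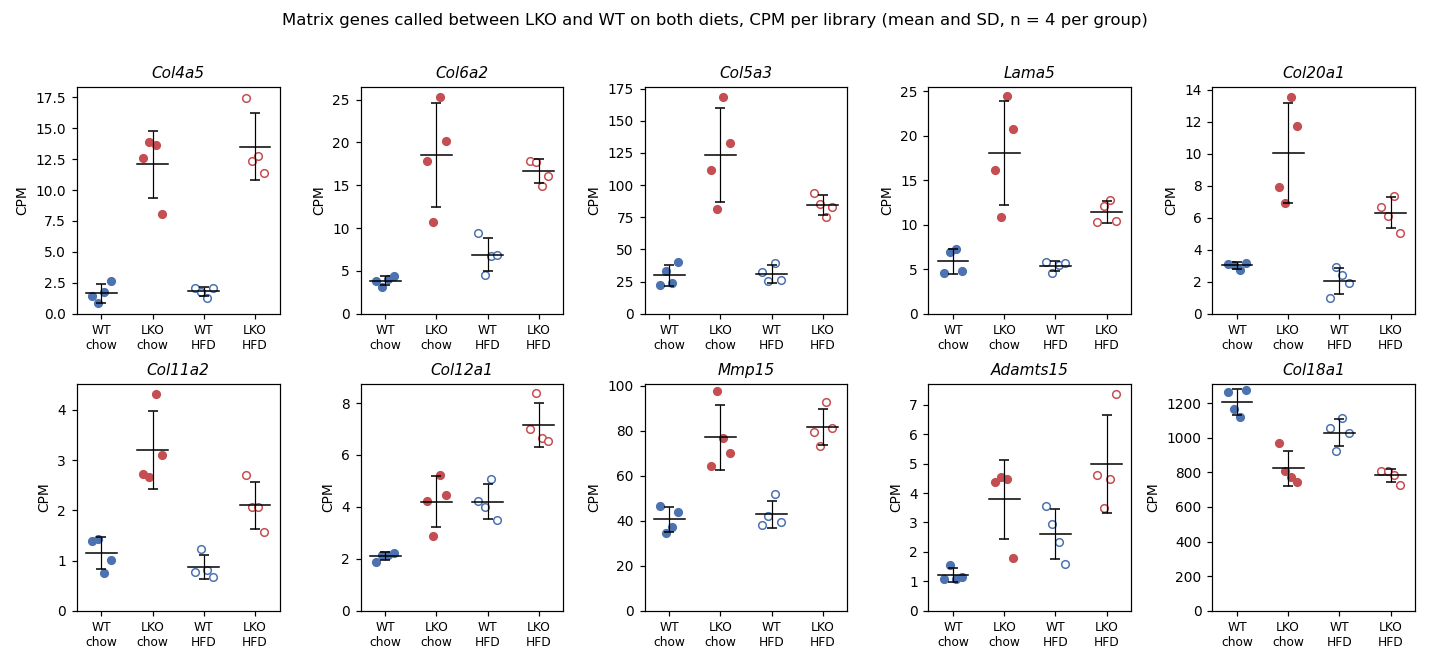
CPM per library of the 10 matrix genes called between LKO and WT on both diets, by group (filled points chow, open points HFD, blue WT, red LKO), with the group mean as a line and the SD as a bar (n = 4). In 9 panels the LKO points lie higher, with an overlap on HFD for Adamts15 alone, and in the panel of Col18a1 they lie lower on each diet, at 745 to 970.0 CPM against 1122 to 1275 CPM on chow and 727 to 811 CPM against 922 to 1115 CPM on HFD.

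Collagen VI forms beaded microfilaments from a Col6a1, a Col6a2 and a longer chain such as Col6a3. Col6a2 rose with loss of Arglu1, from 3.84, 3.10, 4.04 and 4.39 CPM to 17.9, 10.8, 25.3 and 20.1 CPM on chow. On HFD it went from 9.37, 4.57, 6.74 and 6.91 CPM in WT to 17.8, 17.7, 14.9 and 16.1 CPM in LKO. Again the genotypes were fully apart on each diet, with a 4.82-fold difference on chow (log2 fold change 2.27, SE 0.23, edgeR adjusted p = 2.63e-06) and a 2.41-fold difference on HFD (log2 fold change 1.27, SE 0.22, edgeR adjusted p = 0.000619). Col6a1 had log2 fold changes of 0.38 (adjusted p = 0.129) and 0.02 (adjusted p = 0.951). Col6a3 rose on chow by 0.61 (SE 0.19, edgeR adjusted p = 0.0244), from 8.65, 10.7, 12.4 and 6.52 CPM to 15.3, 11.8, 17.3 and 14.1 CPM. The Col6a3 groups overlapped, and its adjusted p reached 0.16 over the alternatives. Col6a6, a scarce chain with at most 1.23 CPM in any library, rose on chow by 1.53 (SE 0.48, adjusted p = 0.0279), with an adjusted p of up to 0.11 over the alternatives. WT chow libraries held at most 0.458 CPM of Col6a6, which passed the filter on low counts mainly through LKO libraries.

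Of the fibrillar collagens, Col5a3 and Col11a2 rose on both diets while no chain of collagens I and III was called. Collagens V and XI are minor partners of the major fibrils and are known to set fibril thickness. Col5a3 was at 22.1, 33.2, 23.7 and 39.8 CPM in WT and 112, 81.5, 169 and 133 CPM in LKO on chow, and at 32.2, 25.1, 39.7 and 26.2 and 93.9, 85.3, 75.4 and 83.3 CPM on HFD. The lowest LKO library lay above the highest WT library on each diet, a 4.16-fold change on chow (log2 fold change 2.05, SE 0.22, edgeR adjusted p = 5.89e-06) and a 2.74-fold change on HFD (log2 fold change 1.45, SE 0.22, edgeR adjusted p = 0.000193).

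Col11a2, a chain best known from cartilage, was low throughout. It rose from 1.38, 1.43, 0.753 and 1.01 CPM in WT to 2.73, 2.66, 4.33 and 3.10 CPM in LKO on chow (log2 fold change 1.47, SE 0.26, edgeR adjusted p = 0.00056). On HFD it rose from 0.769, 1.23, 0.807 and 0.677 to 2.71, 2.07, 2.06 and 1.57 CPM (log2 fold change 1.27, SE 0.27, edgeR adjusted p = 0.00317). The genotypes did not overlap on either diet. Col5a1, a chain that pairs with Col5a3 in collagen V, had log2 fold changes of -0.10 on chow and -0.47 on HFD (edgeR adjusted p = 0.762 and 0.095). Col5a2, another collagen V chain, went from a mean of 3.38 CPM in WT to 5.09 CPM in LKO on chow and from 4.91 to 5.5 CPM on HFD. Col5a2 was not called, but DESeq2 and limma voom called it on chow. For Col1a1, Col1a2 and Col3a1, the main scar collagens, the log2 fold changes between genotypes were 0.32, 0.20 and 0.43 on chow (adjusted p = 0.393, 0.519 and 0.0814) and -0.24, -0.29 and -0.12 on HFD (adjusted p = 0.547, 0.321 and 0.699).

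Fibril-associated collagens bind to the surface of collagen I fibrils. Col12a1, which is known to be induced under mechanical load, was called in all 4 comparisons of 2 groups. Its values were 1.89, 2.14, 2.15 and 2.22 CPM in WT chow and 4.23, 2.89, 5.24 and 4.47 CPM in LKO chow, then 4.23, 3.98, 5.08 and 3.48 CPM in WT HFD and 7.0, 8.40, 6.67 and 6.55 CPM in LKO HFD. No group overlapped the one it was compared with, and the means of LKO chow and WT HFD were 4.21 ± 0.98 and 4.19 ± 0.67 CPM (SD, n = 4 each). Between genotypes the chow value was 0.995 on the log2 scale (SE 0.19, edgeR adjusted p = 0.000815) and the HFD value 0.77 (SE 0.17, adjusted p = 0.00448). For diet it was 0.996 in WT (SE 0.19, adjusted p = 0.00761) and 0.77 in LKO (SE 0.17, adjusted p = 0.0279). These 4 comparisons share libraries in pairs and are not independent of each other.

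Col20a1, a little-studied member of the same class, rose from 3.12, 3.02, 2.74 and 3.19 CPM to 7.93, 6.90, 13.5 and 11.7 CPM on chow (log2 fold change 1.73, SE 0.26, edgeR adjusted p = 0.000106). On HFD it rose from 0.961, 2.90, 2.42 and 1.90 CPM to 6.65, 6.13, 7.37 and 5.07 CPM (log2 fold change 1.62, SE 0.27, edgeR adjusted p = 0.000329). LKO and WT libraries were apart on both diets. Col16a1, which joins fibrils to other matrix components, fell on HFD from 6.58, 4.33, 6.45 and 4.65 CPM to 3.88, 4.06, 3.42 and 3.05 CPM (log2 fold change -0.61, SE 0.20, edgeR adjusted p = 0.0406), with an adjusted p of up to 0.124 over the alternatives. Col14a1, second to Col18a1 in the class per kilobase, had no call in any comparison, with 55.3 ± 15 CPM in WT chow, 49.5 ± 23 in LKO chow, 73.5 ± 19 in WT HFD and 57.7 ± 3.8 in LKO HFD (SD, n = 4 each).

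Transmembrane collagens were scarce. Col25a1 rose on HFD, from 0.244, 0.200, 0.302 and 0.0925 CPM in WT to 0.570, 0.891, 0.165 and 1.16 CPM in LKO (log2 fold change 1.74, SE 0.51, edgeR adjusted p = 0.0226), although LKO library 3 lay within the WT range. No WT library exceeded 0.415 CPM, and Col25a1 passed the filter on low counts through LKO libraries, so its p-value is not free of that selection. The Col25a1 call was lost without WT HFD library 4, LKO HFD library 2 or LKO HFD library 4, with an adjusted p of up to 0.096. Col25a1 was not tested at all when the HFD groups were fitted alone or a mean count of at least 50 was required. Col13a1 and Col23a1 were not called in any comparison, with Col13a1 at 2.61 to 5.32 CPM in WT chow and 1.89 to 6.7 CPM in LKO chow.

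Among the metalloproteinases, Mmp15 alone was called between genotypes by edgeR with all libraries. It encodes a membrane-anchored protease (MT2-MMP). On chow it stood at 46.7, 34.7, 37.2 and 44.05 CPM in WT and 64.6, 97.6, 76.6 and 70.1 CPM in LKO, and on HFD at 38.1, 42.2, 51.7 and 39.3 and 79.6, 73.2, 92.9 and 81.3 CPM. The change was 1.90-fold on chow (log2 fold change 0.93, SE 0.14, edgeR adjusted p = 9.36e-05) and 1.91-fold on HFD (log2 fold change 0.93, SE 0.14, edgeR adjusted p = 0.000109), with no overlap of genotypes. Mmp14, the related protease that activates progelatinase A, was lower in each LKO HFD library (27.0 to 36.4 CPM) than in each WT HFD library (38.6 to 46.8 CPM), but missed the threshold, with a log2 fold change of -0.40 (SE 0.14, edgeR adjusted p = 0.0512). DESeq2, limma voom and several other alternatives called Mmp14 on HFD, and limma voom also called Mmp19 there. Mmp19, a secreted protease of basement membrane proteins with the highest level per kilobase of the family, had log2 fold changes of -0.22 on chow and 0.23 on HFD (adjusted p = 0.169 and 0.164).

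The ADAMTS proteases held 5 rises of 12 on chow, where 12.9% of all genes were called higher, and 1 rise and 1 fall on HFD, where 10.3% were called higher and 7.57% lower. Adamts14 and Adamts2 remove the amino-terminal propeptide of fibrillar procollagens. Adamts14 rose on chow from 0.933, 1.30, 1.15 and 1.89 CPM to 3.10, 6.04, 6.62 and 4.86 CPM (log2 fold change 1.97, SE 0.33, edgeR adjusted p = 0.000354), without overlap, and on HFD the groups overlapped (log2 fold change 0.35, adjusted p = 0.509). Adamts2 rose on chow from 11.2, 11.9, 12.2 and 7.18 CPM to 19.7, 16.6, 19.7 and 18.9 CPM (log2 fold change 0.82, SE 0.19, edgeR adjusted p = 0.00532), and the groups were again apart.

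Adamts1 and Adamts15 cleave matrix proteoglycans such as versican. Adamts1 rose on chow by 0.74 (SE 0.16, edgeR adjusted p = 0.00297), with WT at 7.93 to 11.03 CPM and LKO at 13.5 to 22.5 CPM. Adamts15 rose on chow from 1.07, 1.55, 1.08 and 1.16 CPM to 4.36, 4.55, 4.46 and 1.79 CPM (log2 fold change 1.64, SE 0.32, edgeR adjusted p = 0.00132) and on HFD from 3.55, 2.95, 2.34 and 1.58 CPM to 4.60, 3.50, 4.49 and 7.38 CPM (log2 fold change 0.94, SE 0.30, edgeR adjusted p = 0.0364). The genotypes overlapped on HFD by LKO library 2 alone, and the HFD call was lost in 6 of 27 alternatives, all of which left out 1 library, with an adjusted p of up to 0.15. Adamts10, a protease tied to fibrillin microfibrils, rose on chow by 0.59 (SE 0.2, edgeR adjusted p = 0.0446), from 9.77, 9.98, 9.63 and 9.32 CPM to 10.2, 9.41, 19.4 and 19.3 CPM. Libraries 3 and 4 of LKO chow, at 19.4 and 19.3 CPM, stood above the other chow libraries, and without them the log2 fold change was 0.02 (adjusted p = 0.947). The Adamts10 call was lost in 16 of 27 alternatives. Adamts13, which cleaves von Willebrand factor and is made by stellate cells, fell on HFD from 11.8, 11.3, 11.8 and 9.08 CPM to 8.64, 8.17, 7.92 and 7.25 CPM (log2 fold change -0.46, SE 0.12, edgeR adjusted p = 0.0125), without overlap.

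Among inhibitors and crosslinking enzymes there was 1 call, for Loxl1 on chow. Timp2 and Timp3, the 2 inhibitors in the table, were not called in any comparison, with Timp3 at 19.6 to 35.5 CPM in WT chow and 13.7 to 37.3 CPM in LKO chow. Of the 5 lysyl oxidases, Loxl1, which acts on elastic fibres, rose on chow from 1.94, 2.01, 1.83 and 1.74 CPM to 3.61, 2.04, 4.33 and 3.78 CPM (log2 fold change 0.86, SE 0.24, edgeR adjusted p = 0.0142). Its groups did not overlap, but the call was lost without LKO chow library 3 and without LKO chow libraries 3 and 4, with an adjusted p of up to 0.182. Loxl2 and Loxl4 were not called in any comparison. With HFD, Loxl4 had log2 fold changes of -1.68 in WT and -1.98 in LKO (SE 0.55 and 0.57, edgeR adjusted p = 0.141 and 0.0833). In LKO the diet groups of Loxl4 did not overlap, and DESeq2 called it there.

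Because chains of one protein are needed together, ratios of chain transcripts within each library were also examined. The 11 pairs, chosen after the values were known, include some that are not partners in one protein. A ratio within a library does not depend on library scaling, and since it is not corrected for transcript length it is compared between libraries only. Col6a2 to Col6a1 lay between 0.351 and 0.619 in WT chow and between 1.4 and 2.09 in LKO chow, and between 0.427 and 0.646 in WT HFD and 1.26 and 1.45 in LKO HFD. Col5a3 to Col5a1 lay between 1.87 and 4.47 in WT chow and 8.56 and 19.2 in LKO chow, and between 1.8 and 2.57 in WT HFD and 6.93 and 10.6 in LKO HFD. Lama5 to Lamc1 lay between 0.26 and 0.32 in WT chow and 0.574 and 1.85 in LKO chow, and between 0.228 and 0.261 in WT HFD and 0.619 and 0.686 in LKO HFD. These 3 ratios and that of Col4a5 to Col4a1, which is not a pair of partner chains, had no overlap between genotypes on either diet. With 4 against 4 libraries the exact 2-sided permutation test cannot go below p = 0.0286, which each of them reached, and after adjustment over 22 tests this became 0.0699, so that none passed. Col1a1 to Col1a2 overlapped between genotypes, with mean log2 ratios of -0.46 ± 0.39 in WT chow and -0.33 ± 0.25 in LKO chow (SD, n = 4 each, exact p = 0.629).

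**Figure D3:**
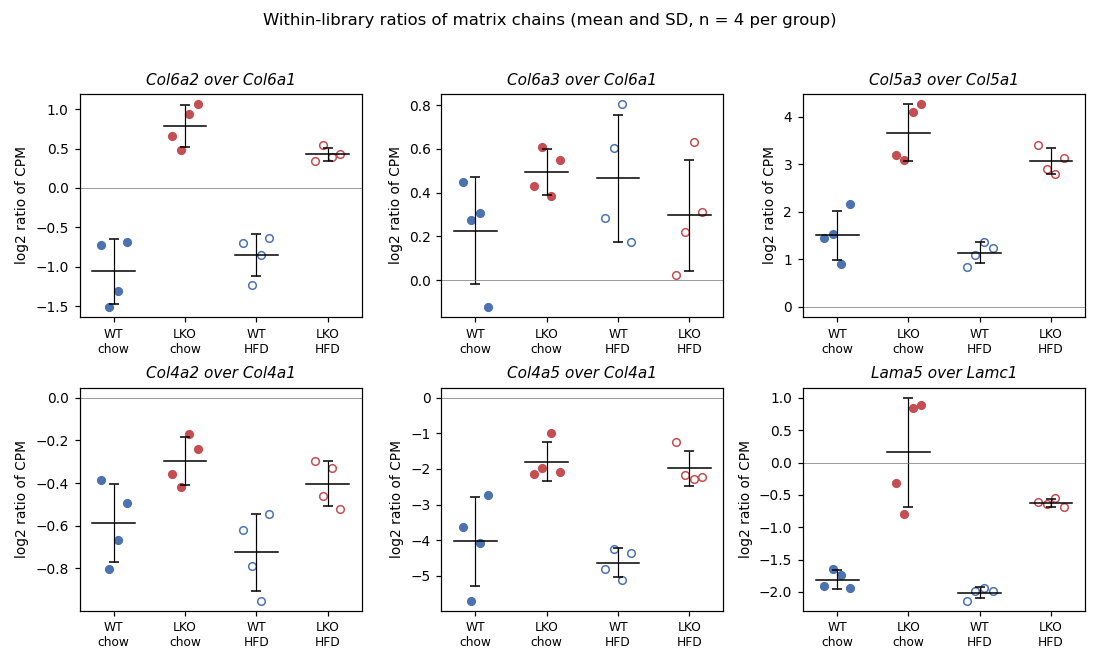
Log2 of the ratio of CPM of 6 pairs of matrix chains in each library, by group, with the mean as a line and the SD as a bar (n = 4 per group). For Col6a2 over Col6a1 the LKO points lie above 0 and the WT points below it on both diets, whereas for Col6a3 over Col6a1 the groups overlap.

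The genotype differences on the 2 diets can be set side by side for each gene. For Col4a5 the log2 fold change was 2.87 on chow and 2.91 on HFD, and for Mmp15 it was 0.93 on both. For Col6a2 it was 2.27 on chow and 1.27 on HFD, and for Adamts14 1.97 and 0.35. The interaction of genotype and diet, which tests this difference, called none of the 74 genes and 0.0208% of all genes. Among the 74, 10 had an unadjusted p below 0.05, against 8.75% of all genes, the lowest adjusted p was 0.395, and DESeq2 and limma voom also called 0. Interaction values lay below 0 in 61 of the 74 genes, with a median of -0.38 against -0.02 over all genes. They also lay below 0 in 18 of 18 endothelial markers (median -0.51) and 20 of 22 stellate cell and fibroblast markers (median -0.34), whose part in this shift was not tested. Adamts14 had -1.62 (SE 0.46, edgeR adjusted p = 0.395) and Col6a2 -0.998 (SE 0.32, adjusted p = 0.413). Without LKO chow libraries 1 and 2, 6 genes were called: Adamts10, Adamts14, Col6a2, Lama5, Loxl1 and Mmp19. Without LKO chow libraries 3 and 4 none was called, and shares over all genes in these fits were not computed.

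**Figure D4:**
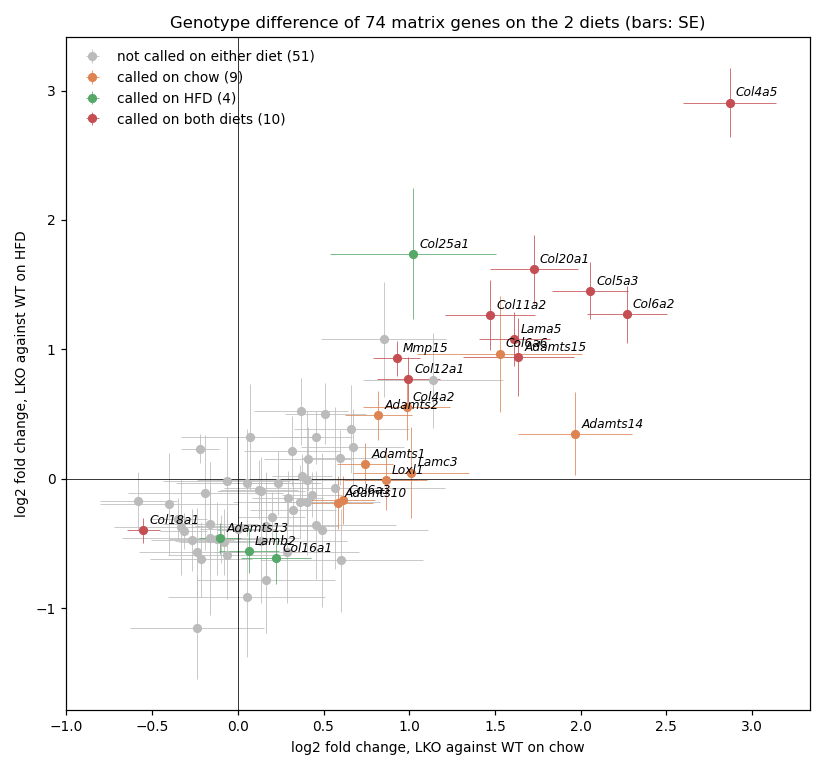
Fitted log2 fold change of LKO against WT on chow (x axis) and on HFD (y axis) for the 74 matrix genes tested, with bars for the SE. The 10 genes called on both diets, in red, have Col4a5 at 2.87 and 2.91 at the top right and Col18a1 at -0.55 and -0.40 at the lower left, and 51 genes, in grey, were called on neither.

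The diet comparison in WT asked what 12 weeks of HFD do to the same transcripts in livers with intact Arglu1. Here it was the major fibrillar collagens that rose: Col3a1, Col1a2 and Col1a1, together with Col12a1 and Col6a3. These 5 are 6.76% of the 74 genes, against 2.04% called among all genes (0.97% called higher), and no matrix gene was called lower. The comparison shares its WT chow libraries with that of genotype on chow. The median log2 fold change was 0.38 over the 74 and 0.01 over all genes, with 55 of the 74 above 0. HFD and chow libraries did not overlap in 15 of 74 genes (20.3%), against 9.53% of all genes.

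Col1a1 and Col1a2 encode the chains of collagen I, and Col3a1 the chain of collagen III of reticular fibres. In WT chow liver Col1a1 was at 9.72, 8.30, 11.7 and 6.28 CPM, and in WT HFD liver at 26.4, 20.1, 22.6 and 12.5 CPM (log2 fold change 1.18, SE 0.25, edgeR adjusted p = 0.0204). Col1a2 went from 10.1, 11.96, 14.4 and 12.3 CPM to 32.8, 24.1, 24.4 and 17.1 CPM (log2 fold change 1.01, SE 0.20, edgeR adjusted p = 0.0101) and Col3a1 from 20.9, 29.6, 33.4 and 23.4 CPM to 69.99, 46.5, 59.99 and 42.5 CPM (log2 fold change 1.03, SE 0.18, edgeR adjusted p = 0.00429). In each of the 3 genes every HFD library lay above every chow library, and the change was 2.27-, 2.02- and 2.04-fold. Beside this, the summed level of 22 stellate cell and fibroblast markers was 311 to 429 CPM in WT chow and 358 to 533 CPM in WT HFD, and its part in the result was not tested. WT HFD library 1 held the highest value of all 3 and library 4 the lowest. The call of Col1a1 was lost without WT chow library 4, WT HFD library 1 or WT HFD library 3, with an adjusted p of up to 0.0678, and that of Col3a1, Col1a2 and Col12a1 held in each of 27 alternatives.

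Col6a3 rose in WT on HFD from 8.65, 10.7, 12.4 and 6.52 CPM to 18.5, 16.3, 21.2 and 12.1 CPM (log2 fold change 0.83, SE 0.19, edgeR adjusted p = 0.0285), with an overlap between chow library 3 and HFD library 4. Its call was lost in 5 alternatives, where the adjusted p reached 0.103. Adamts1 did not overlap between diets but narrowly missed the threshold, with a log2 fold change of 0.64 (SE 0.16, edgeR adjusted p = 0.0524). DESeq2 and limma voom called it.

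In LKO the same diet comparison called Col12a1 alone, 1.35% of the 74 genes against 2.22% of all genes (1.14% called higher). This count moved with the method: DESeq2 called 6 genes, limma voom 9 and the fit without LKO chow libraries 1 and 2 called 10, while in WT the same 3 called 12, 8 and 11. The WT and LKO counts are therefore no measure of a difference in diet response. Shares over all genes in these 3 fits were not computed. LKO HFD and LKO chow libraries did not overlap in 8 of the 74 genes (10.8%), against 10.2% of all genes, and the median log2 fold change was 0.03. The Col12a1 call in LKO was lost when the LKO groups were fitted alone and when any of 4 single libraries was left out, with an adjusted p of up to 0.11. Col1a1 in LKO was at 11.2, 8.33, 14.5 and 10.8 CPM on chow and 14.7, 15.2, 24.6 and 14.4 CPM on HFD, and Col3a1 at 41.3, 32.5, 38.4 and 32.7 and 42.6, 44.5, 63.3 and 50.9 CPM. The Col3a1 groups were just apart and those of Col1a1 overlapped. Log2 fold changes in LKO were 0.62 for Col1a1, 0.52 for Col1a2 and 0.47 for Col3a1 (edgeR adjusted p = 0.193, 0.164 and 0.161). The diet effect on these genes was not shown to differ between genotypes, since their interaction values were -0.56, -0.49 and -0.56 (adjusted p = 0.639, 0.616 and 0.544).

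**Figure D5:**
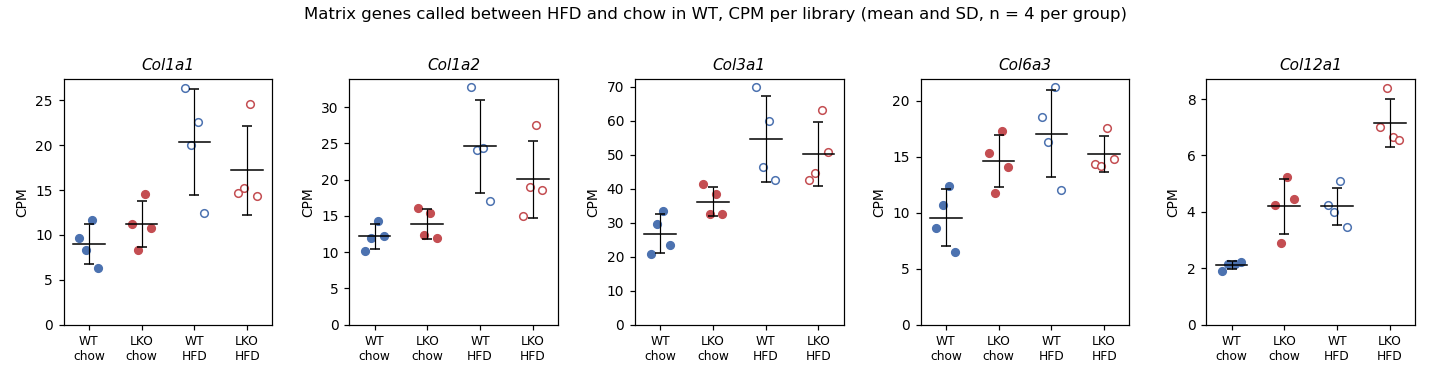
CPM per library of the 5 matrix genes called between HFD and chow in WT, by group (filled points chow, open points HFD, blue WT, red LKO), with the mean as a line and the SD as a bar (n = 4 per group). The WT HFD points of Col1a1, Col1a2, Col3a1 and Col12a1 lie above all WT chow points, and those of Col6a3 overlap them.

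Genes that act on or with these proteins were examined as lists, whose counts are to be read beside 24.7% of all genes called between genotypes on chow and 17.9% on HFD. Of 22 collagen-processing enzymes and chaperones tested, 4 rose and 1 fell in LKO on chow (22.7%) and 4 rose on HFD (18.2%), both near the share over all genes. Bmp1, which removes the carboxy-terminal propeptide of procollagens, rose on both diets by 0.35 and 0.41 (SE 0.08 each, edgeR adjusted p = 0.00423 and 0.00143). It fell with HFD by 0.43 in WT and 0.36 in LKO (SE 0.08 each, adjusted p = 0.00818 and 0.0259). The prolyl hydroxylase subunit P4hb rose on HFD by 0.44 (SE 0.084, adjusted p = 0.00128). Of 18 matrix proteoglycans, 3 rose and 2 fell on chow (27.8%) and 3 rose on HFD (16.7%). The cell-surface proteoglycan Gpc1 went from a mean of 6.57 CPM in WT to 58.6 CPM in LKO on chow (log2 fold change 3.14, SE 0.36, adjusted p = 2.16e-05) and from 8.16 to 66.9 CPM on HFD (3.04, SE 0.35, adjusted p = 3.31e-05). Agrn, the basement membrane proteoglycan agrin, rose by 0.55 and 0.39 (SE 0.079 each, adjusted p = 7.56e-05 and 0.00202).

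Of 22 genes of the plasminogen system and other protease control, 5 rose and 2 fell on chow (31.8%) and 4 rose on HFD (18.2%). Serpine2, an inhibitor of thrombin and plasminogen activators, rose by 2.69 and 2.89 (SE 0.27 each, edgeR adjusted p = 2.77e-06 and 2.04e-06). Reck, a membrane-anchored inhibitor of metalloproteinases, fell in LKO on chow by 1.26 (SE 0.25, adjusted p = 0.00143) and in WT with HFD by 1.08 (SE 0.25, adjusted p = 0.0327). Of 21 matrix receptors tested 3 rose and 1 fell on chow (19%), and 1 rose on HFD (4.76%). Of 32 matrix glycoproteins 1 rose and 1 fell on chow, where Fn1, fibronectin, fell by 0.53 (SE 0.15, adjusted p = 0.0129), and 1 fell on HFD, which are 6.25% and 3.12% of the list. Of 25 genes of TGF-beta and profibrotic signalling, 3 rose on chow (12%), and 2 rose and 3 fell on HFD (20%). Wwtr1, the transcriptional coactivator TAZ, rose by 1.07 and 0.82 (SE 0.1 each, adjusted p = 8.42e-07 and 1.73e-05). With HFD in WT, 1 glycoprotein rose (3.12%, against 0.97% of all genes called higher) and none fell. It was Thbs2 (log2 fold change 0.97, SE 0.24, edgeR adjusted p = 0.0458).

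Markers of the cells that make or hold matrix were set beside these results. Among all genes 24.7% were called between genotypes on chow and 17.9% on HFD, and 2.04% between diets in WT and 2.22% in LKO. Of 22 stellate cell and fibroblast markers, all tested and none at 0 in any library, 1 rose in LKO on chow (4.55%), and 1 rose and 2 fell on HFD (13.6%). Their summed level was 311 to 429 CPM in WT chow, 339 to 496 in LKO chow, 358 to 533 in WT HFD and 350.0 to 455 in LKO HFD. With HFD in WT none of the 22 was called, while the median log2 fold change was 0.25 and 18 lay above 0. Between genotypes the median of the 22 was 0.12 on chow, with 15 above 0, and -0.15 on HFD, with 5 above 0. Of 18 endothelial markers none was called on chow or between diets, and Vwf fell in LKO on HFD by 0.39 (SE 0.13, edgeR adjusted p = 0.0444). As a set they had a median log2 fold change of 0.15 in LKO on chow, with 16 of 18 above 0, of -0.29 in LKO on HFD, with 1 of 18 above 0, and of 0.34 with HFD in WT, with 16 of 18 above 0. The matrix medians in these comparisons were 0.34, -0.10 and 0.38, and the part of endothelial RNA in them was not tested. The endothelial sum was 364 to 778 CPM in WT chow, 364 to 884 in LKO chow, 368 to 884 in WT HFD and 395 to 587 in LKO HFD.

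Of 16 macrophage and monocyte markers 4 rose with HFD in WT (25%) and 2 with HFD in LKO (12.5%). Among all genes 0.97% were called higher with HFD in WT and 1.14% in LKO. The risers in WT included Gpnmb (2.41, SE 0.33, edgeR adjusted p = 0.000609) and Mmp12 (2.52, SE 0.39, adjusted p = 0.00221). In LKO against WT, 2 of the 16 markers rose on chow (12.5%) and none on HFD, against 12.9% and 10.3% of all genes called higher. The macrophage sum was 165 to 344 CPM in WT chow, 160 to 314 in LKO chow, 277 to 304 in WT HFD and 238 to 363 in LKO HFD. Of 9 bile duct markers 2 rose in LKO on each diet (22.2%), and 3 of the 12 listed were at 0 in some library. The bile duct sum was 65.6 to 81.5 CPM in WT chow and 86.2 to 121 CPM in LKO chow, and 67.0 to 96.1 and 97.6 to 110.1 CPM on HFD. Cdh1, which hepatocytes can also express, went from a mean of 7.17 to 47.4 CPM on chow and from 5.22 to 40.4 CPM on HFD, more than the rise of the mean sum (75.0 to 112 and 77.9 to 101 CPM). The median log2 fold change of the 9 tested was 0.23 on chow and -0.45 on HFD, where 7 lay below 0. None of 11 Kupffer cell, 4 neutrophil and 7 mesothelial markers tested was called between genotypes. Of 8 B and plasma cell markers 2 fell in LKO on chow, Igkc and Jchain (25%, against 11.8% of all genes called lower). Of 10 T and NK cell markers 1, Prf1, rose on both diets (10%, against 12.9% and 10.3% of all genes called higher). Of 13 p53 target genes 12 rose in LKO on each diet (92.3%), against the same 12.9% and 10.3% of all genes. Of 10 hepatocyte markers, 4 fell on chow and 3 fell and 1 rose on HFD (40% called on each diet, against 24.7% and 17.9% of all genes). The part of cell composition in the matrix differences was not tested.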

How the data were processed

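Estimated counts per gene were deposited by the authors for 16 liver libraries. The submitters' processing notes name mm10, Bowtie2 and DESeq2 without versions, and the counting tool and its annotation are not given in the sources used here. Only 51.1% of the deposited expected counts were whole within 1e-06, so they were rounded. Libraries held 19142612 to 25120565 counts, so genes near 1 CPM rest on few counts.

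Every gene was fitted with edgeR 4.0.16 (R 4.3.3; TMM scaling, filterByExpr by group, robust quasi-likelihood) with 1 mean per group, and p-values were adjusted by Benjamini-Hochberg over 14434 genes. CPM use TMM library sizes. DESeq2 1.42.0, limma 3.58.1 voom with quality weights, other scalings and filters, a replicate block and fits without single libraries were the alternatives.

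A second deposited table of 35712 genes held the same counts for all 78 genes, once its chow values, which stood 1 row below their gene names, were moved up by 1 row. This was chosen after seeing the data, and the table was used for Col22a1, for the summed levels of marker genes and as an alternative. Members and lists were chosen with earlier results of these data known. All called members and the 2 with the highest mean CPM per family are named, and from other lists up to 3 called genes per comparison. Other genes named were chosen after their values were seen. Single values of some marker genes are not reported here.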

Additional observations from a re-analysis of the deposited data

Results flagged for a closer look

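In 8 of 160 groups examined (5%, against about 1 in 20 by chance), 1 library stood apart from the other 3 of its group. In LKO HFD library 3 these were Col1a1 at 24.6 CPM (others 14.4 to 15.2) and Adamts2 at 27.7 CPM (others 17.6 to 18.8). The others were Adamts15 in LKO chow library 4 at 1.79 CPM (others 4.36 to 4.55), Col25a1 in LKO chow library 2 at 0.35 CPM (others 0.737 to 0.813), Col23a1 in LKO HFD library 1 at 1.69 CPM (others 0.876 to 0.948) and Lamb2 in LKO HFD library 2 at 6.53 CPM (others 4.86 to 5.03). Loxl2 in WT HFD library 1 was at 8.13 CPM (others 4.83 to 5.17), and Mmp14 in WT chow library 4 at 44.9 CPM (others 58.9 to 61.4).

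Among 40 genes examined, 4 had an effect of opposite sign in the 2 groups compared by a strict rule. Every library had to lie on one side of the mean of its reference group in the first comparison and on the other side in the second. Further genes changed sign without meeting this rule. The interaction was not called for any of the 4 with all libraries. Without LKO chow libraries 1 and 2 it was called for all 4, and without libraries 3 and 4 for none. The rule picked these 4 by the same values that the interaction tests, so the calls are no separate support. How many of all genes meet the rule was not computed. HFD against chow had a log2 value of 0.40 in WT and -0.37 in LKO for Adamts10, 0.74 and -0.88 for Adamts14, and 0.84 and -0.15 for Col6a2. LKO against WT had -0.22 on chow and 0.23 on HFD for Mmp19.

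Col22a1, a fibril-associated collagen of tissue junctions, is 1 of 28 matrix genes listed in the second table only. Of these 2 were tested, and the other, Adamts4, was not called in any comparison (edgeR adjusted p = 0.901 on chow and 0.897 on HFD between genotypes). Col22a1 had 0 to 9.86 counts in WT chow and 52.6 to 77.9 in LKO chow, and 0 to 17.6 counts in WT HFD and 59.1 to 75.2 in LKO HFD, with no overlap between genotypes. Log2 fold changes were 3.41 and 3.18 on chow and HFD (SE 0.64 and 0.61, edgeR adjusted p = 0.000952 and 0.00139). Col22a1 passed the filter on low counts mainly through the LKO libraries, since WT libraries held at most 0.476 CPM on chow and 0.710 CPM on HFD. Its p-values are not free of that selection, so the values describe the gene only.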

How the results depend on the processing

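Of the calls, 13 of 19 on chow, 10 of 14 on HFD, 3 of 5 for diet in WT and 0 of 1 for diet in LKO held in every alternative in which the gene was tested, and none reversed. A mean count of at least 50 left Col11a2, counted there on both diets, untested, and likewise Col6a6 and Col25a1. The fit of the HFD groups alone left Col25a1 untested. Leaving out single libraries gave 14 to 22 calls on chow, 10 to 15 on HFD, 3 to 8 for diet in WT, 0 to 4 for diet in LKO and 0 to 0 for the interaction. For LKO against WT on HFD, voom called 26. For diet in WT, DESeq2 called 12, voom 8, the fit without LKO chow libraries 1 and 2 called 11, and that without libraries 3 and 4 called 9. For diet in LKO the same 4 called 6, 9, 10 and 3, and a fit of the groups compared alone called 0. The interaction had 6 calls without LKO chow libraries 1 and 2 and 0 without libraries 3 and 4. The cause of these moves was not tested, and shares over all genes were not computed for the alternatives.

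Only uncalled values reversed. Col6a3 for diet in LKO was -0.021 with voom and -0.042 without LKO chow libraries 1 and 2, and Col5a1 between genotypes on chow was 0.074 without LKO chow libraries 3 and 4. Leaving out single libraries gave -0.251 to 0.018 for Col3a1 and -0.044 to 0.146 for Col6a1 between genotypes on HFD, -0.032 to 0.151 for Col6a3 for diet in LKO, and -0.232 to 0.030 for Col5a1 between genotypes on chow. With the replicate block 20, 15, 5, 1 and 0 genes were called, and Adamts10 on chow and Col16a1 on HFD lost their calls. Same-numbered libraries correlated above 0.1 in 5 of 24 pairs, and 3 of 16 libraries correlated best with their own number. The labels do not say that the numbers pair libraries, and such correlations cannot exclude a pairing. At this depth the 22 genes with a mean below 1 CPM are measured with few counts.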
